A study of Saccharomyces cerevisiae with 24 samples.

Results

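Mitochondrial ribosomal protein genes of budding yeast were followed in cells that lack the transcription factor Crz1, with or without calcineurin, during growth in calcium chloride. The members were chosen by gene name alone, as the genes of the count table named MRPL, MRPS, MRP or RSM followed by a number, without MRP8. This gave 65 genes of 7126 in the table. Of these, 34 carry MRPL names (large subunit) and 20 carry MRPS or RSM names (small subunit). The other 11 carry numbered MRP names, of which MRP7, MRP20 and MRP49 are annotated to the large subunit and 8 to the small one. Counted by annotation, 37 members belong to the large and 28 to the small subunit, with RSM22 placed by its name. No measured value entered that rule, but the group was proposed with the counts and fold changes of these same comparisons known, so its counts and medians are given as descriptions that support nothing further.

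The mitochondrial ribosome makes the few proteins that the mitochondrial genome encodes, most of them core subunits of the respiratory chain and the ATP synthase. Nearly all of its proteins are encoded in the nucleus, made in the cytosol and imported, and assemble on ribosomal RNAs made inside the organelle. In budding yeast many of their mRNAs carry sites for the RNA-binding protein Puf3 behind the coding sequence, and Puf3 is known to set the decay and translation of these mRNAs. Calcineurin is a phosphatase switched on by calcium and calmodulin, Cnb1 is its regulatory subunit, and Crz1 is the transcription factor it activates.

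The groups with both deletions were haploid MATa his3delta1 ura3delta0 leu2delta0 lys2delta0 cells of the BY4741 background carrying crz1delta::LEU2 and cnb1delta::KanMx, called crz1 cnb1 here. The crz1 groups carry crz1delta::LEU2 and keep CNB1. Both strains also carry the insertion ChrVI181901-182001::HYG-TEFp-GFP(Y66F), and both lack Crz1, so the strains compare cells without and with Cnb1 where Crz1 is absent, and no wild type was analysed here. Cells were kept in synthetic medium with ammonium chloride as nitrogen source, and sampled without calcium (0 h) or after 12, 48 and 72 h with 200 mM CaCl2, with dilution every 12 h. Each of the 8 groups has 3 libraries of polyA RNA, numbered 1 to 3, 24 in all. The labels do not say whether libraries of a group came from separate cultures, so p-values measure only the spread between these libraries. No untreated library was analysed at 12, 48 or 72 h, so the effect of calcium and that of time in culture cannot be told apart within a strain.

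Library totals lay between 21582317 and 22016465 counts. CRZ1 had 0 to 4 counts per library in both strains, and CNB1 had 3 to 22 counts in crz1 cnb1 libraries, against 1581 to 3043 in crz1 libraries. Genes of MATa cells summed to between 969 and 4950 CPM per library (counts scaled to library size), and those of MATalpha cells to between 21.9 and 42.9 CPM. In a principal component analysis of all genes, some libraries stood apart from the others of their groups. These were replicate 1 of crz1 at 48 h and replicate 1 of both untreated groups. Some counts of members that rest on them are also given without them, and those of the gene lists are not. The crz1 libraries at 12 h were also widely spread, from 17.1 to -5.65 on component 1 and from 0.282 to 34.5 on component 2. Those of crz1 cnb1 at 12 h ran from 15.2 to -6.04 on component 1. VAR1, the ribosomal protein gene of the mitochondrial genome, had 0 to 4 counts per library and is not described further; mitochondrial mRNAs of yeast carry no polyA tail.

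All 65 members passed the filter on low counts and were tested among 6089 genes. Per length, on the TPM scale, the median of the members' mean levels over all libraries was 54.6 TPM, against 24.7 TPM for the 6737 genes of the TPM table. The large subunit ranged from MRPL40 (20.6 TPM) and MRPL35 (29.2 TPM) at the low end to MRPL36 (133 TPM) and MRPL39 (262 TPM) at the high end. The small subunit ranged from RSM22 (14.4 TPM) and MRP21 (33.7 TPM) to MRP10 (133 TPM) and MRPS12 (165 TPM). RSM22 is annotated in RefSeq as a tRNA methyltransferase, whereas the other 64 members are annotated as proteins of the ribosome's subunits. MRPL51, MRPL19 and MRP4 overlap other annotated genes (YPR099C, YNL184C and YHL005C), and since the strand setting of the counting is not given, reads of these pairs cannot be told apart.

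A short sequence behind the coding region was shared by almost all members. The letters TGTANATA, the core recognised by Puf3, occurred on the coding strand within 200 bases after the stop codon in 64 of 65 members (98.5%), against 844 of 6002 coding genes of the reference (14.1%). RSM22 was the member without it. The same core with a C at the second base before it was present in 51 members (78.5%), against 4.22% of coding genes. One site was found in 51 members, 2 sites in 12 members and 3 sites in RSM19. The first site started a median of 51 bases after the stop codon (8 to 139), and in 60 of the 64 members within 100 bases. In the 780 other coding genes with a site the median was 60 bases (1 to 193), with 576 within 100 bases. Windows of 24 bases around the site are shown for members that fell most in crz1 (MRPL50, MRPS17, MRPL13, RSM28), for those that rose at 72 h in both strains (MRPL4, MRP20, MRP4, RSM7), for MRPL11, whose strain difference changed past the threshold at all 3 times, and for RSM19, which has the largest strain difference, with capitals marking the site. They were read from the R64 genome (RefSeq), 5′ to 3′ on the coding strand.
MRPL50 (chrXIV:669722-669745, minus strand): tacaatctTGTATATAggcaacat
MRPS17 (chrXIII:636220-636243, minus strand): ctacactcTGTAAATAtatacaac
MRPL13 (chrXI:450361-450384, minus strand): taatatccTGTACATAtatatact
RSM28 (chrIV:1438039-1438062, plus strand): tacataccTGTAAATAtctagtac
MRPL11 (chrIV:99270-99293, plus strand): ttcaatcaTGTACATAcatcatca
MRPL4 (chrXII:1015470-1015493, plus strand): ctctctccTGTAAATAtatatata
MRP20 (chrIV:1278502-1278525, plus strand): ctcacactTGTATATAcggagcaa
MRP4 (chrVIII:100432-100455, plus strand): cctaaactTGTACATAtgcccata
RSM7 (chrX:638195-638218, minus strand): aacttgccTGTACATAaacacatt
RSM19, site 1 (chrXIV:695027-695050, minus strand): ggatctagTGTATATAgatttcta
RSM19, site 2 (chrXIV:694999-695022, minus strand): atatatcaTGTAAATAagatcaag
RSM19, site 3 (chrXIV:694971-694994, minus strand): actcgggcTGTATATAtatatata

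The sites shown for members that fell and for members that rose carry the same core, and at its variable base A, C and T each occur in both sets. All 54 members that fell in crz1 at 72 h and all 4 that rose there hold a site. Since 64 of the 65 members hold one, this cannot tell whether the site goes with the direction of change. The match is a description of letters and not of binding, which was not measured here.

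**Figure D1:**
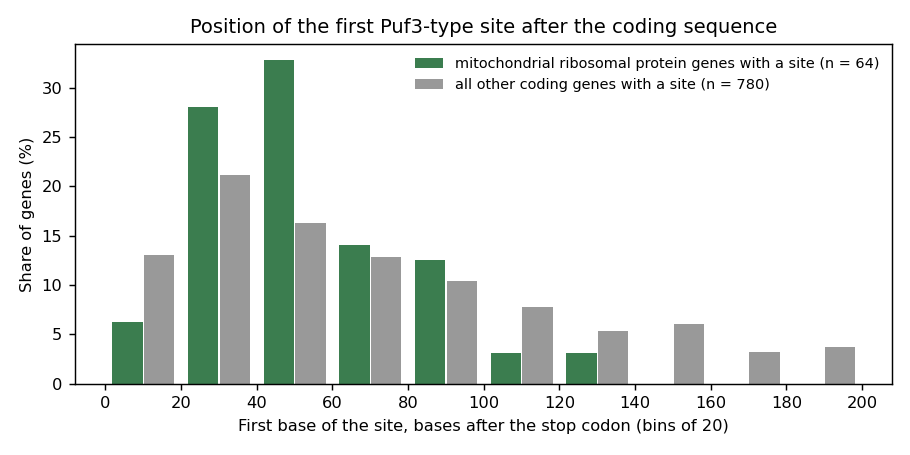
Share of genes (y axis, %) by the distance of the first Puf3-type site from the stop codon (x axis, bins of 20 bases), for the 64 members with a site (green) and the 780 other coding genes with one (grey). The members' sites lie mostly between 20 and 100 bases behind the stop codon.

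The letters searched before the start codon were not more frequent in members than in all coding genes. In the 300 bases upstream, on both strands, AAAATTTT was found in 3.08% of members and 9.41% of coding genes, CCAAT (the core bound by the Hap complex, an activator of respiratory genes) in 36.9% and 41.8%, TTTCTTT in 35.4% and 37.4%, and ACGTG in 23.1% and 23.7%. All 15 genes that RefSeq annotates as mitochondrial ribosomal proteins under other names also hold the site behind the stop codon, as do 13 of 13 mitochondrial aminoacyl-tRNA synthetases. So do 7 of 7 membrane insertion genes, 13 of 17 translational activators and 7 of 9 mitochondrial translation factors. The same holds for 8 of 11 genes of mitochondrial ribosome assembly and 15 of 26 of mitochondrial protein import. It was found in 6 of 138 cytosolic ribosomal protein genes (4.35%) and in 5 of 36 nuclear respiratory chain and ATP synthase genes (13.9%). Lists rich in the site differed in how many genes were higher in crz1 cnb1 than in crz1 at 72 h (edgeR adjusted p under 0.05). These were 5 of 9 translation factors, 3 of 13 synthetases and 2 of 11 assembly genes. They were 2 of 26 import genes, 1 of 7 insertion genes and 0 of 17 activators, where 3.35% of all genes were higher.

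Summed over the 65 members, mRNA levels diverged between the strains in calcium. In crz1 cnb1 cells the members held 0.472 ± 0.022% of all TPM at 0 h, 0.419 ± 0.0218% at 12 h, 0.595 ± 0.0348% at 48 h and 0.524 ± 0.0663% at 72 h (mean ± SD, n = 3). In crz1 cells they held 0.514 ± 0.0212% at 0 h, 0.300 ± 0.0441% at 12 h, 0.378 ± 0.0351% at 48 h and 0.329 ± 0.0265% at 72 h (mean ± SD, n = 3). At 72 h the 3 crz1 cnb1 libraries (0.558, 0.567 and 0.448%) all lay above the 3 crz1 libraries (0.319, 0.359 and 0.309%). At 0 h the groups overlapped on this scale. As TMM-scaled CPM the sums at 0 h were 3321, 3696 and 3698 in crz1 cnb1, against 3830, 3775 and 3761 in crz1, without overlap and lower in crz1 cnb1.

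**Figure D2:**
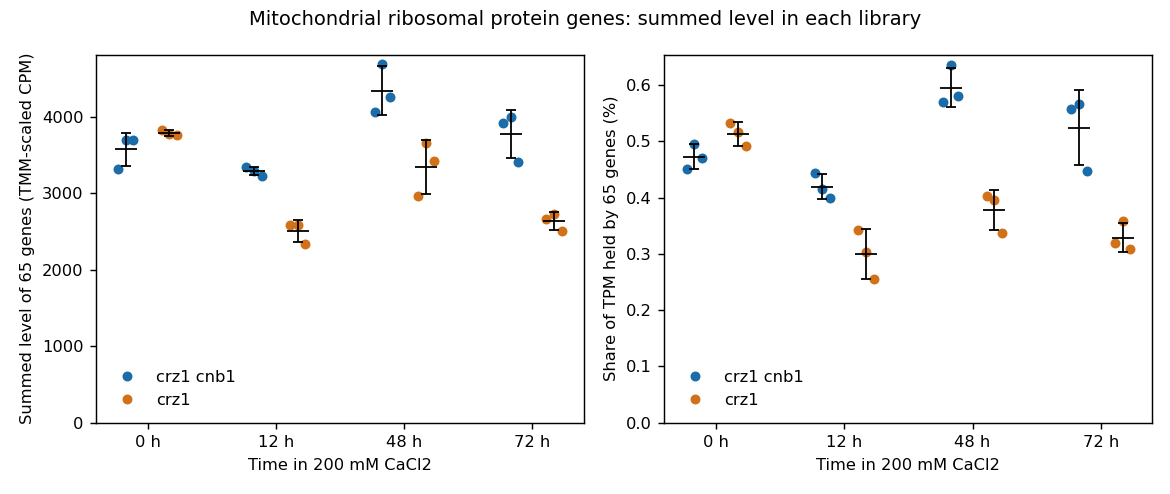
Summed level of the 65 genes in each library as TMM-scaled CPM (left) and as a share of all TPM (right, %), by hours in CaCl2, for crz1 cnb1 (blue) and crz1 (orange), with mean and SD (n = 3 per group). The strains overlap at 0 h on the TPM scale, and at 12, 48 and 72 h every crz1 cnb1 library lies above every crz1 library in both panels.

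By subunit, the summed TPM of large over small subunit members was 1.20 ± 0.0551 at 0 h and 1.13 ± 0.00577 at 72 h in crz1 cnb1, and 1.22 ± 0.0153 at 0 h and 1.09 ± 0.0153 at 72 h in crz1 (mean ± SD, n = 3). At 0 h the libraries of the strains overlapped in this ratio, and at 72 h those of crz1 cnb1 (1.13, 1.13 and 1.12) lay above those of crz1 (1.09, 1.07 and 1.10), a difference that was not tested. The 138 cytosolic ribosomal protein genes held 25.5 ± 0.764% of TPM at 72 h in crz1 cnb1, against 33.1 ± 0.737% at 0 h, and 25.9 ± 1.86% at 72 h in crz1, against 33.5 ± 1.53% at 0 h (mean ± SD, n = 3). Their share at 72 h differed between the strains by less than the spread within crz1.

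In crz1 cells most members had lower levels at 12 h and at 72 h than at 0 h. At 12 h against 0 h, 57 of 65 members fell and 2 rose (edgeR quasi-likelihood test, adjusted p under 0.05), where 14.4% of all genes tested fell and 17.6% rose. The members' median log2 fold change was -0.65, against 0.00 for all genes. At 72 h, 54 fell and 4 rose, where 19.8% of all genes fell and 22.6% rose, with a median of -0.67 against -0.03 for all genes. All 54 members that fell at 72 h were among the 57 that fell at 12 h. The crz1 comparisons share their untreated libraries. Without replicate 1 of both untreated groups, 52 members fell and 2 rose at 12 h, and 50 fell and 4 rose at 72 h.

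Fewer members were called in crz1 at 48 h. Against 0 h, 22 members fell and 6 rose, where 13.7% of all genes fell and 19.8% rose, and the median was -0.21 against 0.07 for all genes. On the TPM scale (limma on log2(TPM + 1)) 48 fell and 1 rose, and the median of all genes was -0.25, so that the members stood 0.31 below it, against 0.28 below it in the count fit. A fit of the libraries compared alone called 9 members, and leaving out replicate 2 of crz1 at 0 h left 18 called, against 28 in the full fit. Without replicate 1 of crz1 at 48 h, 20 fell and 9 rose. Between 12 and 72 h in crz1, MRP4 was the one member called, higher at 72 h (log2 fold change 0.49 ± 0.11 SE, edgeR adjusted p = 0.0209), where 1.13% of all genes rose. That call was lost when either of replicates 1 and 3 at 72 h or 2 and 3 at 12 h was left out, and on the TPM scale (0 members called).

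**Figure D3:**
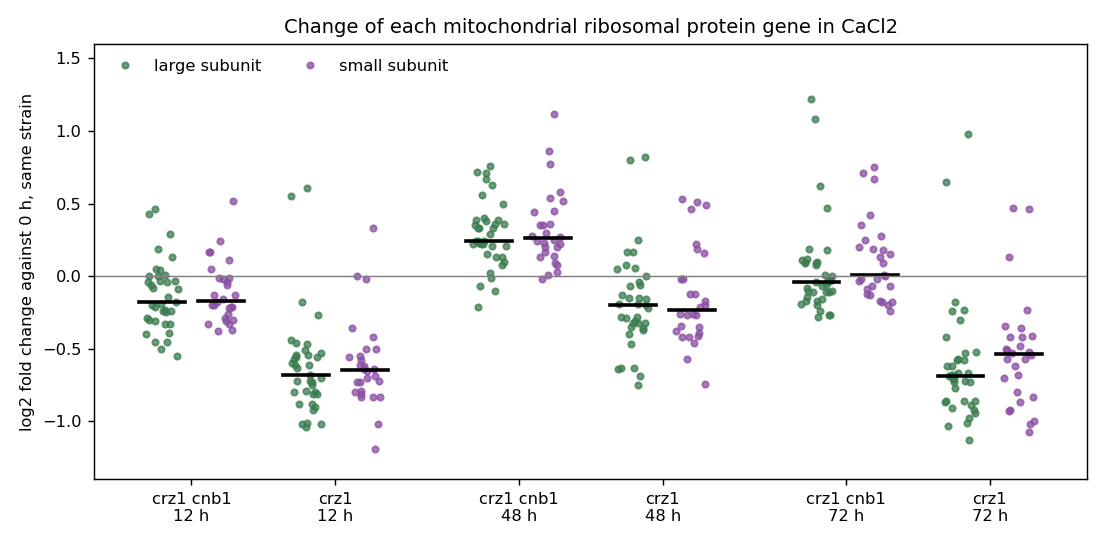
Log2 fold change of each of the 65 genes against 0 h of the same strain (y axis) at 12, 48 and 72 h, for crz1 cnb1 and crz1, split into large (green) and small subunit (purple), with bars at the medians. The crz1 medians lie near -0.65 at 12 h and at or below -0.53 at 72 h in both subunits, and the crz1 cnb1 medians lie near 0 at 72 h.

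The members with the largest falls in crz1 came from both subunits. MRPL50, annotated as the bL9 protein of the large subunit, had 25, 27.6 and 22.3 CPM in crz1 at 72 h, against 62.7, 52.2 and 49.1 CPM at 0 h. Its log2 fold change was -1.13 ± 0.17 (SE, n = 3, edgeR adjusted p = 2.2e-05). In crz1 cnb1 the same gene had 46.3, 49.9 and 38.9 CPM at 72 h, against 45.8, 52.4 and 44.9 CPM at 0 h, and these groups overlapped. CPM values of single genes are scaled by TMM factors.

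MRPS17, a homologue of the bacterial protein uS17 that binds small subunit rRNA, had 29.8, 31.5 and 27.0 CPM in crz1 at 72 h, against 62.1, 63.4 and 59.8 CPM at 0 h. The change was -1.07 ± 0.14 on the log2 scale (SE, n = 3, edgeR adjusted p = 7.02e-06), with no overlap between the groups. In crz1 cnb1 it had 54.3, 56.8 and 44.7 CPM at 72 h, against 47.1, 61.1 and 61.9 CPM at 0 h, which overlapped. MRPL13 is a large subunit protein without a bacterial counterpart. It had 79.3, 74.0 and 62.5 CPM in crz1 at 72 h, against 148, 144 and 147 CPM at 0 h, a change of -1.03 ± 0.11 (SE, n = 3, edgeR adjusted p = 4.98e-07). RSM28, a mitochondria-specific small subunit protein, had 42.0, 46.8 and 39.9 CPM in crz1 at 72 h, against 90.7, 87.8 and 82.5 CPM at 0 h, a change of -1.02 ± 0.10 (SE, n = 3, edgeR adjusted p = 2.25e-07). For both genes all crz1 libraries at 72 h lay below all at 0 h.

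A small group moved the other way. MRPL4, MRP20, MRP4 and RSM7 rose at 72 h in both strains. MRPL4, the uL29 protein, and MRP20, the uL23 protein, are neighbours at the exit of the peptide tunnel of the large subunit, and MRP20 is known to lie near Oxa1, which inserts new proteins into the inner membrane. MRPL4 had 51.3, 59.1 and 68.1 CPM in crz1 at 72 h, against 34.3, 25.5 and 30.6 CPM at 0 h (log2 fold change 0.98 ± 0.19 SE, n = 3, edgeR adjusted p = 0.000282). In crz1 cnb1 it had 76.9, 85.0 and 70.8 CPM at 72 h, against 40.2, 30.3 and 29.1 CPM at 0 h (1.22 ± 0.19 SE, n = 3, edgeR adjusted p = 4e-05). In both strains the groups did not overlap. MRP20 had 49.7, 75.9 and 80.6 CPM in crz1 at 72 h, against 44.2, 45.3 and 42.2 CPM at 0 h, and 88.2, 93.4 and 76.0 CPM in crz1 cnb1 at 72 h, against 41.4, 43.5 and 36.8 CPM at 0 h. Its changes were 0.65 ± 0.15 in crz1 (edgeR adjusted p = 0.00157) and 1.08 ± 0.15 in crz1 cnb1 (edgeR adjusted p = 1.4e-05), each with its SE, and it was the one member called higher at 12, 48 and 72 h in both strains. Its calls at 12 h were lost on the TPM scale by limma on log2(TPM + 1) (adjusted p = 0.117 in crz1 and 0.201 in crz1 cnb1). The crz1 cnb1 call at 12 h was also lost with the compared libraries alone (edgeR adjusted p = 0.0617), without any 1 of the 3 untreated crz1 cnb1 libraries and without replicate 1 or replicate 2 at 12 h (0.0671 to 0.173 by edgeR).

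MRP4 and RSM7, the uS2 and uS7 proteins of the small subunit, rose less. MRP4 changed by 0.47 ± 0.11 in crz1 and by 0.75 ± 0.11 in crz1 cnb1 at 72 h, and RSM7 by 0.46 ± 0.13 and 0.71 ± 0.13 in these strains (log2 fold change ± SE, edgeR adjusted p = 0.00153, 2.13e-05, 0.00902 and 0.000389 in this order). On the TPM scale the crz1 calls of both were lost (adjusted p = 0.0745 for MRP4 and 0.123 for RSM7 by limma on log2(TPM + 1)), and that of RSM7 also without replicate 2 of crz1 at 72 h (edgeR adjusted p = 0.051). MRPS12, the uS12 protein of the decoding site and the member with the highest TPM of the small subunit, had 100.3, 96.9 and 92.9 CPM in crz1 at 72 h, against 88.3, 87.3 and 89.1 CPM at 0 h, and did not pass the test (0.13 ± 0.14, SE, n = 3, edgeR adjusted p = 0.457).

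**Figure D4:**
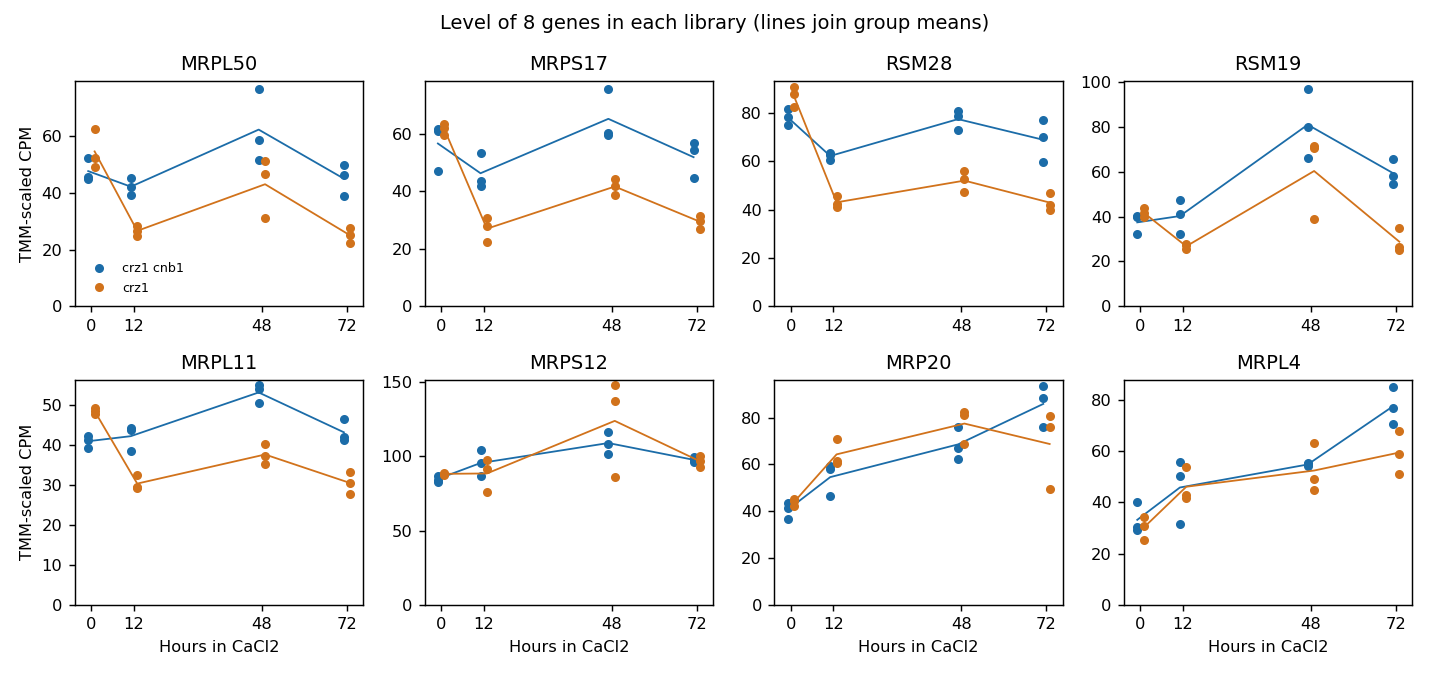
TMM-scaled CPM of 8 members in each library against hours in CaCl2, for crz1 cnb1 (blue) and crz1 (orange), with lines through the group means. MRPL50, MRPS17, RSM28 and MRPL11 are higher in crz1 cnb1 from 12 h on, and RSM19 separates most at 72 h. At 0 h RSM28 and MRPL11 are lower in crz1 cnb1 without overlap. MRPS12 stays close in the strains, and MRP20 and MRPL4 are above 0 h at 72 h in both.

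In crz1 cnb1 cells the members' median changes were small, while single members rose by up to 1.12 at 48 h and 1.22 at 72 h (log2 scale). At 12 h, 6 members fell and 2 rose against 0 h, where 7.67% of all genes fell and 12.9% rose, and the members' median was -0.18 against 0.00. The count of falls was near the share of all genes, and that of rises below it. On the TPM scale 5 fell and none rose, and a fit of the compared libraries alone called 4. The count of 8 was 14 without replicate 1, 2 without replicate 2 and 1 without replicate 3 of the untreated group, and 5 without replicate 1 and 4 without replicate 2 at 12 h. MRPL49 (-0.55), MRPL44 (-0.50), MRPL13 (-0.45), MRPL22 (-0.39), RSM28 (-0.33) and MRPL35 (-0.33) were the 6 that fell, and MRP20 (0.43) and RSM7 (0.52) the 2 that rose, chosen here after their values were seen.

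At 48 h, 17 members rose and 0 fell in crz1 cnb1, where 14.3% of all genes rose and 9.54% fell, with a median of 0.25 against 0.06 for all genes. The largest rise was that of RSM19, the uS19 protein of the small subunit, with 66.3, 96.9 and 79.8 CPM at 48 h, against 32.3, 40.2 and 39.7 CPM at 0 h (log2 fold change 1.12 ± 0.19 SE, n = 3, edgeR adjusted p = 0.000306). The count was 10 without replicate 1 of the untreated group, 9 without replicate 2 at 48 h and 11 on the TPM scale.

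At 72 h, 8 members rose and 0 fell in crz1 cnb1, where 20.1% of all genes rose and 15.7% fell, and the median was -0.02 against 0.01. The 8 were MRPL4, MRP20, MRP4, RSM7, RSM19 (0.67 ± 0.19), MRPL8 (0.62 ± 0.10), MRPL28 (0.47, adjusted p = 0.0129) and RSM24 (0.25, adjusted p = 0.0314), on the log2 scale by edgeR. Under other settings 4 members were called lower: MRPL13 (-0.29, adjusted p = 0.0175) and MRPL35 (-0.29, adjusted p = 0.0459) by DESeq2, MRPL49 with the compared libraries alone (-0.31, edgeR adjusted p = 0.0496) and MRPL32 without replicate 1 at 72 h (-0.37, edgeR adjusted p = 0.0472). MRPL13 was also called lower with RLE factors (-0.30, edgeR adjusted p = 0.0316), and the median was 0.05 on the TPM scale. Between 12 and 72 h, MRPL4 (0.76 ± 0.18), MRP20 (0.65 ± 0.15) and MRP4 (0.58 ± 0.11) rose, where 2.1% of all genes did. This count of 3 was 1 without replicate 1 or without replicate 2 at 72 h, 0 without replicate 3 at 12 h, 6 by DESeq2 and 5 on the TPM scale.

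Set directly against each other, the strains had no called member at 0 h, and those called in calcium were higher in crz1 cnb1 in the fit of all libraries. At 0 h no member was called by edgeR or DESeq2, where 0.0164% of all genes were called, and 1 member passed an unadjusted p under 0.05. The median was -0.08, against -0.01 for all genes, with 50 estimates below 0 and 15 above. By libraries without overlap, 11 members were lower in crz1 cnb1 at 0 h and 0 higher. Over all genes, 321 of 6089 were lower and 209 higher in this way. At 72 h, 49 of 65 members were higher in crz1 cnb1 and 0 lower, where 3.35% of all genes were higher and 2.81% lower. The median log2 difference was 0.56, against 0.01 for all genes, and all 65 estimates were above 0. The libraries of the strains did not overlap for 62 members, where 18.7% of all genes were higher without overlap, and MRP20, RSM7 and MRPS12 were the 3 that did overlap. The count of 49 was 26 without replicate 1 and 24 without replicate 2 of crz1 cnb1, and 32 without replicate 1 and 28 without replicate 3 of crz1, all at 72 h.

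**Figure D5:**
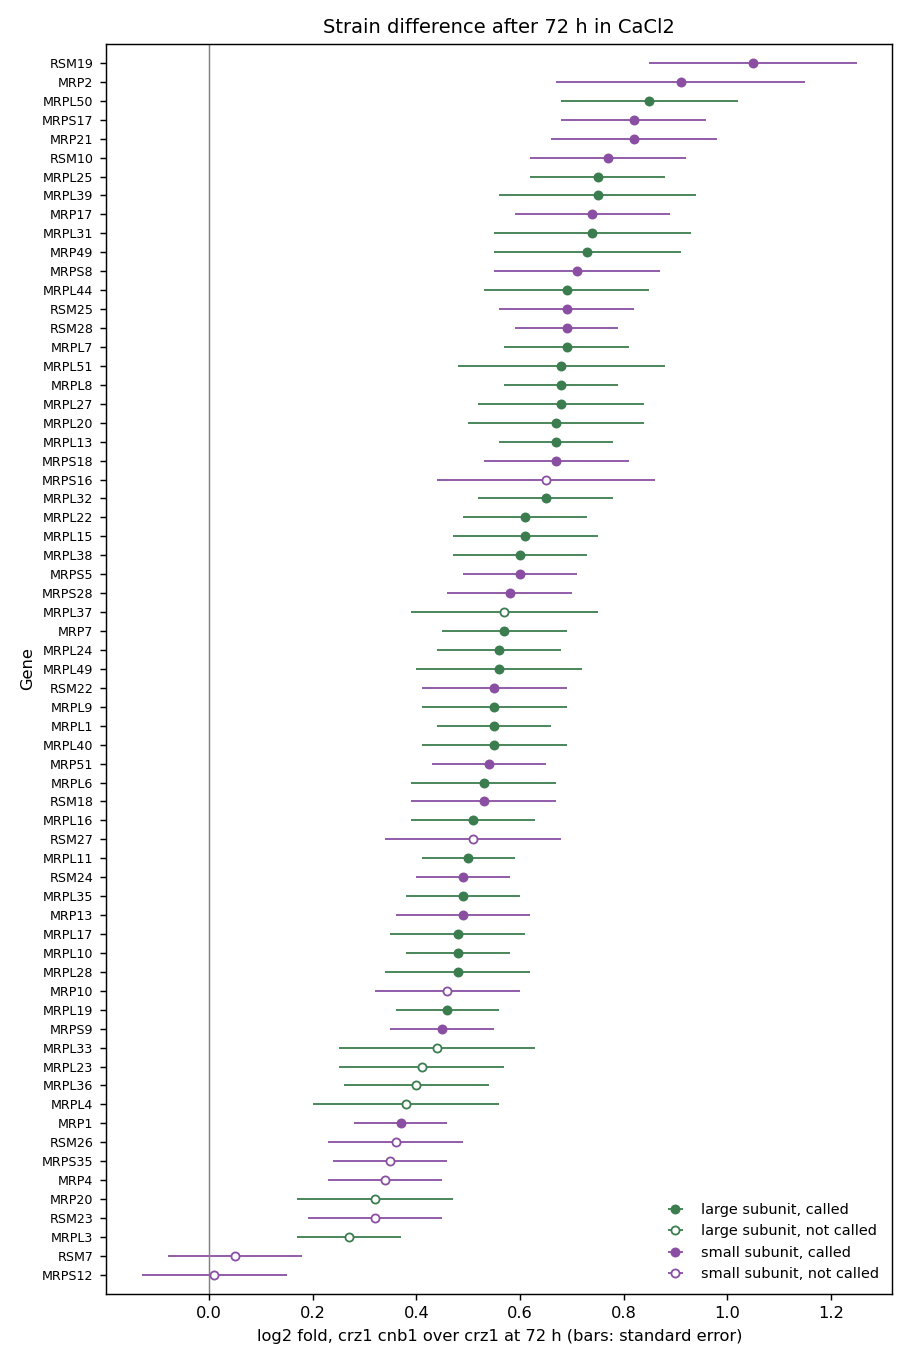
Log2 fold change of crz1 cnb1 over crz1 at 72 h for each of the 65 genes (x axis, bars are standard errors), ordered by size, for large (green) and small subunit (purple), with filled points for the 49 genes past the threshold. All estimates lie above 0, RSM19 is highest at 1.05, and RSM7 and MRPS12 are nearest to 0.

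The strain difference at 72 h was largest for RSM19, which had 58.1, 65.6 and 54.5 CPM in crz1 cnb1, against 35, 24.9 and 26.4 CPM in crz1 (1.05 ± 0.20 on the log2 scale, SE, n = 3, edgeR adjusted p = 0.00275). MRP2, the uS14 protein, had 21.7, 18.9 and 12.4 CPM in crz1 cnb1, against 9.8, 10.3 and 8 CPM in crz1 (0.91 ± 0.24 SE, n = 3, edgeR adjusted p = 0.0256). Neither gene's libraries overlapped between the strains, but the call of MRP2 was lost without replicate 1 (adjusted p = 0.161) or 2 (0.108) of crz1 cnb1, or without replicate 1 (0.0838) or 3 (0.11) of crz1 at 72 h, by the same test. MRPL50 (0.85 ± 0.17, adjusted p = 0.00416) and MRPS17 (0.82 ± 0.14, adjusted p = 0.0016) followed, from the values given above (edgeR).

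At 12 h, 21 members were higher in crz1 cnb1 and 0 lower, where 1.64% of all genes were higher and 2.09% lower, with a median of 0.43 against 0.01. At 48 h, 20 were higher and 0 lower, where 2.07% were higher and 3.05% lower, with a median of 0.42 against -0.01. Of these, 18 of the 21 and 19 of the 20 were also called at 72 h. The members called at all 3 times were MRPL7, MRPL8, MRPL11, MRPL13, MRPL25, MRPL35, MRP51, MRPS9, MRPS17, RSM25 and RSM28, and 12 members were called at none. The counts at 12 and 48 h depended on the fit: with the compared libraries alone, 0 members were called at either time, although 53 and 33 passed an unadjusted p under 0.05, all of them higher in crz1 cnb1. With the replicate number as a block within each strain, 3 were called at 12 h, and with the block over all libraries 27. The count at 48 h also moved with the block, down within strain and up over all libraries, as given in the section on processing.

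Single libraries also moved these counts. At 12 h the count was 8 without replicate 2 and 9 without replicate 3 of crz1 cnb1, and 9 without replicate 2 and 3 without replicate 3 of crz1. At 48 h it was 11 without replicate 2 and 12 without replicate 3 of crz1 cnb1, and 9 without replicate 3 of crz1. Without replicate 1 of crz1 at 48 h, 23 members were higher and MRPS12 was lower in crz1 cnb1 (-0.39, edgeR adjusted p = 0.00732). On the TPM scale 57 members were called higher at 48 h, where the median of all genes stood at 0.26, and the members lay 0.42 above it, against 0.43 in the count fit.

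Whether the strain difference changed from 0 h to a time in calcium was tested as an interaction. This change was called for 12 members at 72 h, all toward crz1 cnb1, where 0.509% of all genes were called in that direction. The median change over the members was 0.69, against 0.02 for all genes, and all 65 estimates were above 0. At 48 h, 5 members were called, where 0.312% of all genes were, with a median of 0.46. At 12 h, MRPL11 was the 1 member called, where 0.0328% of all genes were, with a median of 0.49. DESeq2 called 9, 13 and 33 members at 12, 48 and 72 h. Same-numbered libraries of the strains deviated together at 0 h and 12 h. At 48 h those numbered 1 and 2 did so (correlations of 0.662 and 0.508), but hardly those numbered 3 (0.0954). With the replicate number as a block 3, 10 and 34 members were called over all libraries and 5, 10 and 23 within strain.

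MRPL11, the uL10 protein at the base of the ribosomal stalk, was called at all 3 times. It had 43.9, 38.7 and 44.3 CPM in crz1 cnb1 at 12 h, against 39.4, 42.3 and 41.4 CPM at 0 h, and 29.2, 32.5 and 29.5 CPM in crz1 at 12 h, against 48.6, 47.8 and 49.4 CPM at 0 h. The crz1 groups did not overlap and the crz1 cnb1 groups did. At 72 h it had 42.0, 46.5 and 41.3 CPM in crz1 cnb1 and 30.6, 33.3 and 27.7 CPM in crz1. The strain difference changed by 0.72 ± 0.13 at 12 h, 0.74 ± 0.13 at 48 h and 0.74 ± 0.13 at 72 h (log2 scale ± SE, edgeR adjusted p = 0.0408, 0.0229 and 0.00904). At 0 h all its crz1 cnb1 libraries lay below all its crz1 libraries. These changes therefore include the difference before calcium, which was not called.

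RSM28 and MRPL8 had the smallest p beside MRPL11 at 72 h. For RSM28 the strain difference changed by 0.84 ± 0.14 (SE, edgeR adjusted p = 0.0082). It had 77.3, 69.9 and 59.5 CPM in crz1 cnb1 at 72 h, against 75, 78.3 and 81.5 CPM at 0 h, while the crz1 values given above fell. MRPL8, the bL17 protein of the large subunit, rose in crz1 cnb1, with 79.9, 81.7 and 68.7 CPM at 72 h, against 49.3, 50.7 and 49.4 CPM at 0 h. In crz1 it had 45.2, 51.2 and 47.2 CPM at 72 h, against 56.4, 54.5 and 57.5 CPM at 0 h, and did not pass the test (-0.23 ± 0.10, edgeR adjusted p = 0.0814). Its strain difference changed by 0.85 ± 0.15 (SE, edgeR adjusted p = 0.00877). MRPL7, the uL5 protein of the central protuberance, had 62.9, 62.4 and 62.5 CPM in crz1 cnb1 at 48 h, against 54.1, 51.9 and 53.5 CPM at 0 h, and 43.9, 36.9 and 29.6 CPM in crz1 at 48 h, against 58.2, 57.4 and 56.6 CPM at 0 h. Its strain difference changed by 0.88 ± 0.17 at 48 h (SE, edgeR adjusted p = 0.0229). For RSM28, MRPL8 and MRPL7 too, all crz1 cnb1 libraries at 0 h lay below all crz1 libraries at 0 h. Their changes also include that difference.

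These interaction counts were sensitive to single libraries. At 72 h, 12 became 0 without replicate 3 and 7 without replicate 1 of crz1 at 72 h, 3 without replicate 2 of crz1 at 0 h, 3 without replicate 1 of crz1 cnb1 at 0 h, 3 without replicate 1 and 3 without replicate 2 of crz1 cnb1 at 72 h, and 20 without its replicate 3. Without replicate 1 of both untreated groups it was 3. At 48 h the 5 calls became 15 without replicate 1 of crz1 at 48 h and 0 to 2 without any 1 of 10 other libraries, and at 12 h the 1 call became 5 without replicate 1 of crz1 at 12 h and 0 without any 1 of the other 11 libraries. For MRPL11 the change at 72 h, 0.74 with all libraries, was 0.68 without replicate 3 of crz1 at 72 h (edgeR adjusted p = 0.0515).

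Members were also counted by subunit. At 72 h against 0 h in crz1, 30 of 34 MRPL genes fell and 1 rose (median -0.68), and 15 of 20 MRPS and RSM genes fell and 1 rose (median -0.53). Between the strains at 72 h, 28 of 34 MRPL genes were higher in crz1 cnb1 (median 0.56), as were 13 of 20 MRPS and RSM genes (median 0.57). With the numbered MRP genes added, 30 of 37 large and 19 of 28 small subunit genes were higher, with medians of 0.56 and 0.55. No test of the subunits against each other was made, and the ranges overlapped broadly, from 0.27 to 0.85 for MRPL genes and from 0.01 to 1.05 for MRPS and RSM genes. The class of members without a bacterial ribosomal counterpart, 25 in number, includes RSM22, which RefSeq annotates as a tRNA methyltransferase. This class had a median strain difference of 0.55 at 72 h, and the 40 with a bacterial counterpart one of 0.56. None of the 25 members of this class rose in crz1 at 72 h (21 fell), and the 4 that rose there were among the 40 with a bacterial counterpart (33 fell).

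Other genes of the same machinery were counted from lists of known function. At 72 h against 0 h, 19.8% of all genes tested fell and 22.6% rose in crz1, and 15.7% fell and 20.1% rose in crz1 cnb1. Between the strains at 72 h, 3.35% of all genes were higher in crz1 cnb1 and 2.81% lower. Of the 15 mitochondrial ribosomal protein genes with other names, 0 rose and 11 fell in crz1 at 72 h (median -0.49), 3 rose and 0 fell in crz1 cnb1 (median -0.06), and 9 were higher and 0 lower in crz1 cnb1 than in crz1 (median 0.49). PET123, a small subunit protein, differed by 0.73 ± 0.12 between the strains at 72 h (edgeR adjusted p = 0.00124), MNP1 of the large subunit by 0.60 ± 0.10 (adjusted p = 0.0011) and NAM9 of the small subunit by 0.44 ± 0.10 (adjusted p = 0.0118), all log2 with SE. Of 9 mitochondrial translation factors, 7 fell and 0 rose in crz1 at 72 h (median -0.55), and 0 fell and 2 rose in crz1 cnb1 (median 0.11). RRF1, the ribosome recycling factor, changed by -1.11 ± 0.20 in crz1 (edgeR adjusted p = 0.000161) and MRF1, the release factor, by -0.62 ± 0.12 (adjusted p = 0.00036), and AIM23, an initiation factor, by -1.03 ± 0.16 (adjusted p = 2.94e-05).

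Of 13 mitochondrial aminoacyl-tRNA synthetases, 4 fell and 0 rose in crz1 at 72 h (median -0.17), where 19.8% of all genes fell and 22.6% rose. In crz1 cnb1, 0 fell and 2 rose (median 0.13), where 15.7% of all genes fell and 20.1% rose. MSF1, the phenylalanyl-tRNA synthetase, changed by -0.89 ± 0.12 in crz1 (edgeR adjusted p = 6.46e-06), and NAM2, the leucyl enzyme, by 0.66 ± 0.13 in crz1 cnb1 (adjusted p = 0.000724). Of 11 genes for ribosome assembly and rRNA modification, 4 fell and 1 rose in crz1 at 72 h (median -0.08), and 1 fell and 2 rose in crz1 cnb1 (median 0.05). The crz1 cnb1 counts of this list were near the shares of all genes. MTG1, a GTPase of large subunit assembly, changed by -0.83 ± 0.15 in crz1 (adjusted p = 0.000198). Of 17 translational activators and related factors, 5 fell and 2 rose in crz1 and 4 fell and 3 rose in crz1 cnb1 at 72 h. Between the strains edgeR called 1 higher in crz1 cnb1 at 12 h and 2 at 48 h, where 1.64% and 2.07% of all genes were higher. At 72 h edgeR called 0 of the 17, 1 had an unadjusted p under 0.05 and DESeq2 also called 0. CBP3, which acts on cytochrome b mRNA, changed by -0.75 ± 0.13 in crz1 cnb1 and by -0.72 ± 0.13 in crz1 (edgeR adjusted p = 0.000216 and 0.000222). Of 7 genes for membrane insertion, 3 fell and 1 rose in crz1 at 72 h (median 0.06), and 0 fell and 1 rose in crz1 cnb1 (median -0.03). The 1 that rose was OXA1 in both strains, by 1.58 ± 0.18 in crz1 cnb1 and by 1.45 ± 0.18 in crz1 (log2 scale, edgeR adjusted p = 2.09e-06 and 4.28e-06).

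The products of 36 nuclear respiratory chain and ATP synthase genes join the mitochondrially made proteins in the same complexes. Of these genes, 22 fell and 2 rose in crz1 cnb1 at 72 h (median -0.90), where 15.7% of all genes fell and 20.1% rose. In crz1, 8 fell and 2 rose (median -0.43), where 19.8% of all genes fell and 22.6% rose, so that the count of called falls was near that share. However, 28 of the 36 estimates were below 0 and 8 above. By libraries without overlap, 23 were lower and 5 higher in crz1 at 72 h than at 0 h. Over all genes, 1596 of 6089 were lower and 1757 higher in this way. Between the strains at 72 h, 0 were higher and 5 lower in crz1 cnb1, where 2.81% of all genes were lower (median -0.40, with 33 estimates below 0 and 3 above). At 12 h and at 48 h edgeR called 0 of the 36 between the strains, with 1 and 14 at an unadjusted p under 0.05 and 1 and 4 called lower by DESeq2 (medians -0.17 and -0.50). Tested as an interaction by edgeR, the change in strain difference was called for 0 of the 36 at 12, 48 and 72 h. Its medians were -0.24, -0.53 and -0.37, and 1, 7 and 5 of all 6089 genes were called lower. RIP1, the Rieske iron-sulfur protein, fell by 2.48 ± 0.36 in crz1 cnb1 and by 1.15 ± 0.34 in crz1 (log2 scale, SE, edgeR adjusted p = 3.36e-05 and 0.0105), and COR1, a core subunit of the same complex, was lower in crz1 cnb1 than in crz1 at 72 h (log2 difference -0.56 ± 0.13, adjusted p = 0.0142). Of 138 cytosolic ribosomal protein genes, 0 were called between the strains at 72 h by edgeR (median -0.11). At that time 13 had an unadjusted p under 0.05 and DESeq2 called 5 lower. At 48 h edgeR called 4 lower and 0 higher in crz1 cnb1, where 3.05% of all genes were lower. The median there was -0.35, with 136 estimates below 0 and 2 above, 57 at an unadjusted p under 0.05 and 18 called lower by DESeq2. At 12 h edgeR called 3 lower and 0 higher, where 2.09% of all genes were lower (median -0.07). Against 0 h, crz1 cnb1 had 71 falls and 2 rises at 72 h and crz1 had 39 falls and 5 rises.

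Genes outside the mitochondrial ribosome that hold the site behind the stop codon were also counted. Of 753 such genes, 62 were higher and 12 lower in crz1 cnb1 at 72 h (median 0.08), and of 4860 genes without the site 82 were higher and 151 lower (median 0.00). In crz1 at 72 h against 0 h, 199 of the 753 fell and 151 rose, and 865 of the 4860 fell and 1190 rose. The 753 genes differ from the 4860 in many other ways, and whether the site bears on these levels was not tested.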

How the data were processed

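PolyA RNA of 24 yeast libraries was sequenced, 3 for each of 2 strains at 4 times. The deposited tables hold raw counts for 7126 genes and the authors' TPM values, scaled by transcript length, for 6737. The submitters' processing notes name featureCounts, DESeq2 and genome build R64, without the role of each. Tool versions, the aligner and the strand option remain not given in the sources used here.

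Counts were tested with edgeR 4.0.16 (R 4.3.3): TMM factors, filterByExpr with its defaults and groups, and a robust quasi-likelihood fit to all 24 libraries with a coefficient per group, for 15 comparisons. P-values were adjusted over all 6089 genes tested (Benjamini-Hochberg), and genes under 0.05 were called. Fold changes are log2 ratios of fitted levels, with standard errors from the F statistic. The steps were tested on simulated data, in which 200 genes had been changed. Totals per library differed by little (21582317 to 22016465 counts).

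The members and all gene lists were chosen with earlier results of these data known, and the search for letters near the genes was added in that knowledge. Single members are named by rule: the 4 largest rises and falls at 72 h in each strain and between strains, the 3 smallest p for each change in strain difference, members called the same way throughout, and the highest and lowest by TPM in each subunit. From each list up to 3 called genes with the smallest p at 72 h could be named. Of the list genes, QRI5, MRP35 and GEP3 were entered after the data were seen, by RefSeq name.

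Replicate numbers were checked as pairs by correlating, across genes, how same-numbered libraries deviated from the mean of their group. Every pair was above 0.1 for crz1 at 12 h (lowest 0.114) and between strains at 0 h (0.56) and at 12 h (0.169), but not for the other comparisons. Alternatives were RLE factors, no filter, a replicate block over all libraries or within strain, only the libraries compared, DESeq2 1.42.0, limma 3.58.1 on log2(TPM + 1) and log2(TPM + 0.1), whose fold changes are understated by the pseudocount for low genes, and each library left out. Figures were drawn with matplotlib 3.10.9.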

Additional observations from a re-analysis of the deposited data

Results flagged for a closer look

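The change of the strain difference against 0 h, tested as an interaction, passed the threshold for these members, always toward higher levels in crz1 cnb1 (edgeR, log2 scale ± SE). At 12 h this was MRPL11 (0.72 ± 0.13, adjusted p = 0.0408). At 48 h it was MRPL11 (0.74 ± 0.13, adjusted p = 0.0229), MRPL7 (0.88 ± 0.17, 0.0229), RSM28 (0.73 ± 0.14, 0.0229), MRPL10 (0.70 ± 0.14, 0.0324) and MRPL22 (0.77 ± 0.17, 0.0406).

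At 72 h it was RSM28 (0.84 ± 0.14, adjusted p = 0.0082), MRPL8 (0.85 ± 0.15, 0.00877), MRPL11 (0.74 ± 0.13, 0.00904), MRPL13 (0.75 ± 0.15, 0.0218), RSM24 (0.61 ± 0.13, 0.0266) and MRPL22 (0.81 ± 0.17, 0.0266). It was also MRPS17 (0.94 ± 0.20, 0.027), MRPL7 (0.80 ± 0.17, 0.0351), MRP51 (0.70 ± 0.15, 0.0351), MRPL10 (0.64 ± 0.14, 0.0404), MRPL50 (1.05 ± 0.23, 0.0404) and RSM19 (1.20 ± 0.27, 0.0459). These 12 calls at 72 h became 0 without replicate 3 of crz1 at 72 h. MRPL11, RSM28, MRPL8 and MRPL7 were lower in crz1 cnb1 without overlap already at 0 h, and their changes include that difference.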

How the results depend on the processing

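Counts of members called moved most with the following choices, and the cause was not tested. No named result reversed its direction, but the members' median for crz1 cnb1 at 72 h against 0 h, -0.02 in edgeR, was 0.05 and 0.05 on the 2 TPM scales. With limma on log2(TPM + 1) and log2(TPM + 0.1), the count was 5 and 5 for crz1 cnb1 at 12 h against 0 h (8 in edgeR), 11 and 11 at 48 h (17), 5 and 5 for 72 h against 12 h (3), 49 and 49 for crz1 at 48 h (28) and 0 and 0 for crz1 at 72 h against 12 h (1). Between the strains at 48 h it was 57 and 55 (20), and for the change in strain difference 0 and 0 at 12 h (1), 25 and 25 at 48 h (5) and 21 and 20 at 72 h (12). With only the libraries compared it was 4 for crz1 cnb1 at 12 h, 9 for crz1 at 48 h, 0 for crz1 at 72 h against 12 h, 0 and 0 between the strains at 12 and 48 h, and 0 and 36 for the change at 48 and 72 h. DESeq2 gave 6 for crz1 cnb1 at 72 h against 12 h and 9, 13 and 33 for the changes, and no filter on low counts gave 0 for the change at 12 h.

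With a replicate block fitted over all libraries the count was 15 for crz1 cnb1 at 12 h against 0 h, 7 at 72 h against 12 h, 35 between the strains at 48 h, and 3, 10 and 34 for the changes at 12, 48 and 72 h. With the block within strain it was 3, 6 and 29 between the strains at 12, 48 and 72 h, and 5, 10 and 23 for the changes. The block changed no other count by over 1.5 times.

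Leaving out 1 library gave, for crz1 cnb1 against 0 h, 1 to 14 calls at 12 h, 9 to 18 at 48 h and 6 to 9 at 72 h, and 0 to 3 for 72 h against 12 h. For crz1 it gave 54 to 59, 18 to 29 and 53 to 58, and 0 to 1. Between the strains it gave 0 to 0 at 0 h, 3 to 22 at 12 h, 9 to 24 at 48 h and 24 to 48 at 72 h, and for the changes 0 to 5, 0 to 15 and 0 to 20. Leaving out replicate 1 of both untreated groups, chosen after seeing the data, gave 15 for crz1 cnb1 at 12 h and 0, 0 and 3 for the changes. Of the named results, 177 kept their side of the threshold under other settings, 16 lost and 7 gained the call, and with 1 library left out 174 kept it, 49 lost and 2 gained it. All 65 members passed the filter on low counts, so depth left none untested.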
